A study of Triticum aestivum with 4 samples.

Results

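The start of stem elongation was examined by setting crowns at the jointing stage against crowns at the spring green-up stage. These are 2 of the 4 small RNA libraries of the series, taken by their stage labels, and all 348 miRNAs of the table were compared between them. The plants were winter wheat (Triticum aestivum, hexaploid bread wheat) of the semi-winter cultivar Shimai 22, untreated and grown in the field through the natural season. The crown is the base of the stem, which carries the shoot apical meristem, young leaves and tiller buds. In the green-up group the plants had resumed growth after winter and, by the study's methods, the shoot apex was at the double ridge stage. In the jointing group the stem internodes had begun to lengthen. For each stage, equal amounts of RNA from 3 biological replicates were mixed and sequenced as 1 library, so each group is a mixture of plants with no measured spread. A difference between the stages therefore has no replicate check, no test was made, and sampling, library and stage cannot be told apart. The three-leaf and winter dormancy libraries are quoted only as values beside the comparison. The table holds no messenger RNA, so the tissue label could not be checked against marker genes.

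Plant miRNAs are small RNAs, cut from hairpin precursors by a Dicer-like enzyme, that guide an ARGONAUTE protein to matching messenger RNAs, which are cleaved or kept from translation. The strand that is loaded is the guide, and the opposite arm of the duplex is usually degraded. Bases 2 to 8 from the 5′ end, the seed, pair first with the target. In the shoot apex of grasses, miR156 holds back SPL transcription factors in the juvenile phase and miR172 acts on AP2-like repressors of flowering later, so the pair sets the pace of the change to reproductive growth. miR5200, a family of the grass subfamily that includes wheat and Brachypodium, cleaves the transcripts of FT genes, VRN3 in wheat. miR159 and miR319 are relatives that act on GAMYB and TCP transcription factors, and miR160, miR167, miR390 and miR393 act on the auxin response.

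The sequences below are those on which the comparison turns, as the deposited table gives them, written 5′ to 3′ with the seed in capitals. The first set holds the phase change families and the miR159 and miR319 pair, the next the auxin, boundary, scarecrow-like and ARGONAUTE regulators, and the last the wheat entries with large changes or shared letters.
miR156a-5p: uGACAGAAgagagugagcaca
miR172a-5p: gCAGCACCaccaagauucaca
miR172e-3p: gGAAUCUUgaugaugcugcau
miR5200a-3p: uGUAGAUAcucccuaaggcuu
miR5200-5p: aAGCCUUAgugaauaucuaca
miR159a.1: uUUGGAUUgaagggagcucug
miR319b-3p: uUGGACUGaagggugcucccu
miR167a: uGAAGCUGccagcaugaucuga
miR390a-5p: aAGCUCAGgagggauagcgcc
miR164a: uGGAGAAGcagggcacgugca
miR394a: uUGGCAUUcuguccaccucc
miR171a-3p: uGAUUGAGccgcgccaauauc
miR171b: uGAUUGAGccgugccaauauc
miR168a-5p: uCGCUUGGugcagaucgggac
miR9672b: uACCACGAcugucauuaagca
miR9672a-3p: cCACGACUgucauuaagcauc
miR9652-5p: cCUGUUUGucauuaaguuucuu
miR6249a: cCUCCGGUggagaguagccgg
miR9676-5p: uGGAUGUCaucguggccguaca
wheat_miR523: uACGGCCUgaugacauccacg
miR6220-5p: uCCGUUCCuaaauauaagucu
miR6224a-5p: uCCGUUCCuaaauauaagucu

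Values are reads per 1000000 mapped reads, written RPM, as the authors deposited them. The step between low values put the depth at 21889000 mapped reads in the green-up library and 20802750 in the jointing library, where 1 read was worth 0.0457 and 0.0481 RPM. A miRNA was counted as higher or lower at jointing when its RPM differed by more than 2-fold, a log2 change beyond 1, and exceeded 5 RPM in either library. A 0 was set to 3 reads, so a fold against it is a lower bound as long as the 0 stands for no more than 3 reads. The smallest listed values were 0.23 and 0.2 RPM. Intervals given with a log2 change are exact 95% binomial intervals and cover counting error only.

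The jointing crowns held fewer reads of the listed miRNAs. Their RPM summed to 107282 at green-up and to 68949.9 at jointing, a ratio of 0.643 (counting interval 0.641 to 0.644), or 10.7% and 6.89% of mapped reads. In pooled tissue, fewer cells of a kind and less of a miRNA in each cell cannot be told apart. miR159a.1 alone lost 30832.8 RPM, which is 80.4% of the net fall of 38332.2 RPM. In that net fall gains offset losses. Entries counted as lower lost 46735.6 RPM and those counted as higher gained 11806.9 RPM. miR159a.1 made up 42.1% of the sum at green-up and 20.8% at jointing, while miR168a-5p went from 11.7% to 19.8%. Without both of these, the ratio of the sums was 0.826.

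Of the 238 miRNAs above 5 RPM in either library, 39 were higher at jointing (16.4%) and 90 were lower (37.8%), and 109 stayed within 2-fold. The median log2 change was -0.70. Because RPM are relative to all mapped reads, a change in other small RNAs moves every miRNA together, and the balance of higher and lower entries depended on the scaling. Dividing by the median ratio of the 193 miRNAs above 0 in both libraries raised every log2 change by 0.60. After that step 50 were higher (21%) and 58 were lower (24.4%), so that 46.3% of the entries past 2-fold were higher in place of 30.2%. Since the step raised every change, all 39 had to remain higher. Of the 90 lower entries 58 remained lower and 32 came within 2-fold. Changes below are on the deposited scale unless the median-ratio scale is named.

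**Figure D1:**
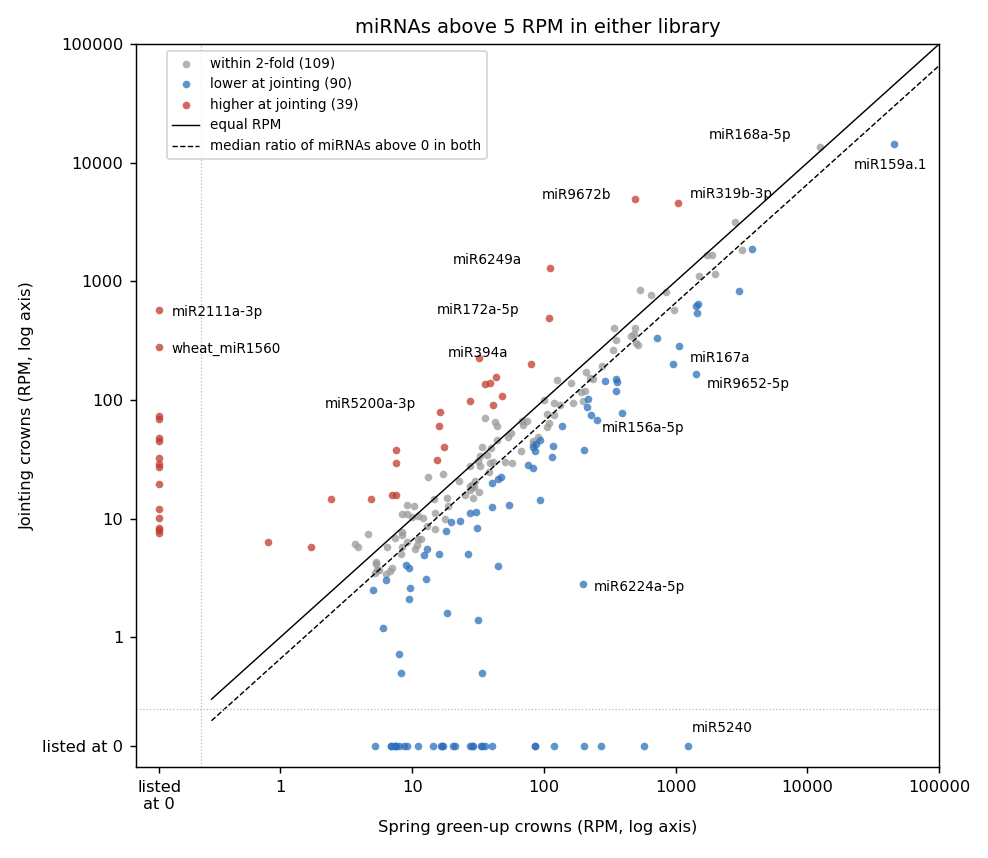
RPM of each of the 238 miRNAs above 5 RPM in either library, green-up on the horizontal and jointing on the vertical log axis, with miRNAs listed at 0 along the edges. Each point is 1 miRNA in 1 pooled library per stage. Most points lie below the line of equal RPM, around the dashed line of the median ratio, and miR9672b, miR319b-3p and miR6249a stand far above it.

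Over the season, jointing was the highest of the 4 libraries for 29 of the 39 higher miRNAs and the lowest, below each of the other 3, for 65 of the 90 lower ones. Over all 238 it was highest for 40 (16.8%) and lowest for 125 (52.5%), and the order against green-up is fixed by the choice of these miRNAs. The listed miRNAs also held less of the jointing reads than of the three-leaf and dormancy reads, 6.89% against 14.3% and 13.6%. Of the 39, 15 were listed at 0 at green-up, and their jointing values ran from 7.6 to 568.5 RPM with a median of 28.6 RPM. Of the 90, 30 were listed at 0 at jointing, with green-up values from 5.2 to 1249 RPM and a median of 20.7 RPM. Among miRNAs above 0 in both libraries, the size of the log2 change ran from 1.01 to 3.54 for the higher and from 1.01 to 6.13 for the lower ones. At the threshold itself, miR5387b was just inside (288.3 RPM before and 143.5 RPM at jointing), and miR1136 just outside with 197.1 and 98.7 RPM.

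The phase change families, miR156, miR172 and miR5200, moved in both directions. All 9 of their entries were above 5 RPM and past 2-fold, against 54.2% of all 238. Of the 9, 6 were higher (66.7%, against 16.4%) and 3 lower (33.3%, against 37.8%). Among them 2 were listed at 0 at jointing and 1 at green-up. Their median log2 change was 1.92 against -0.70 over all 238. The main miR156 entry was lower at jointing, and both arms of miR172 and of miR5200 were higher. The other higher entries were miR156d-3p and miR157d, both at low levels. Arms of 1 duplex are not separate members, and the list was chosen with earlier results of these data known. The shares and the median are therefore no independent evidence of a direction.

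miR156a-5p, the guide strand of the family, had 294.0, 640.0, 226.5 and 74.2 RPM in crowns from the three-leaf stage, dormancy, green-up and jointing, in this order. It was thus at its lowest of the season in the elongating crowns, with a log2 change of -1.61 (-1.69 to -1.53) from green-up. On the median-ratio scale the change was -1.01, barely past 2-fold. Scaled to the summed RPM of the listed miRNAs it was -0.97, within 2-fold. The other entries of the family were low and uneven. miR157d went from 7.0 to 15.9 RPM between green-up and jointing, miR156d-3p was listed at 0 and 10.1 RPM, and miR156h-3p and miR157b-3p went from 21.0 and 8.0 RPM to a listed 0. The sum over the 5 entries followed the main one, from 262.5 to 100.2 RPM (log2 -1.39).

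In the same order of stages, miR172a-5p had 29.3, 23, 109.2 and 492.1 RPM. Jointing was 4.51-fold above green-up (log2 2.17, interval 2.11 to 2.24). miR172e-3p, on the arm that targets AP2-like transcripts, had 13.4, 12.7, 16 and 60.5 RPM. Its log2 change at jointing was 1.92 (1.75 to 2.10), so the 2 arms differed little in fold although the 5p entry was the more abundant. At green-up miR156a-5p was above the sum of the miR172 entries (125.2 RPM), and at jointing that sum, 552.6 RPM, was above miR156a-5p. Most of that sum was miR172a-5p. By itself miR172e-3p stayed below miR156a-5p, with 16 against 226.5 RPM at green-up and 60.5 against 74.2 RPM at jointing.

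miR5200 had a different course. miR5200a-3p, which pairs with FT transcripts, had 437.5, 547.4, 16.4 and 79.6 RPM over the season. The step from green-up to jointing was 4.85-fold upward (log2 2.28, interval 2.11 to 2.45), yet jointing stayed below both earlier stages. miR5200-5p ran in parallel with 157.3, 127.7, 2.4 and 14.7 RPM, a log2 change of 2.61 (2.18 to 3.05) on few reads at green-up.

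**Figure D2:**
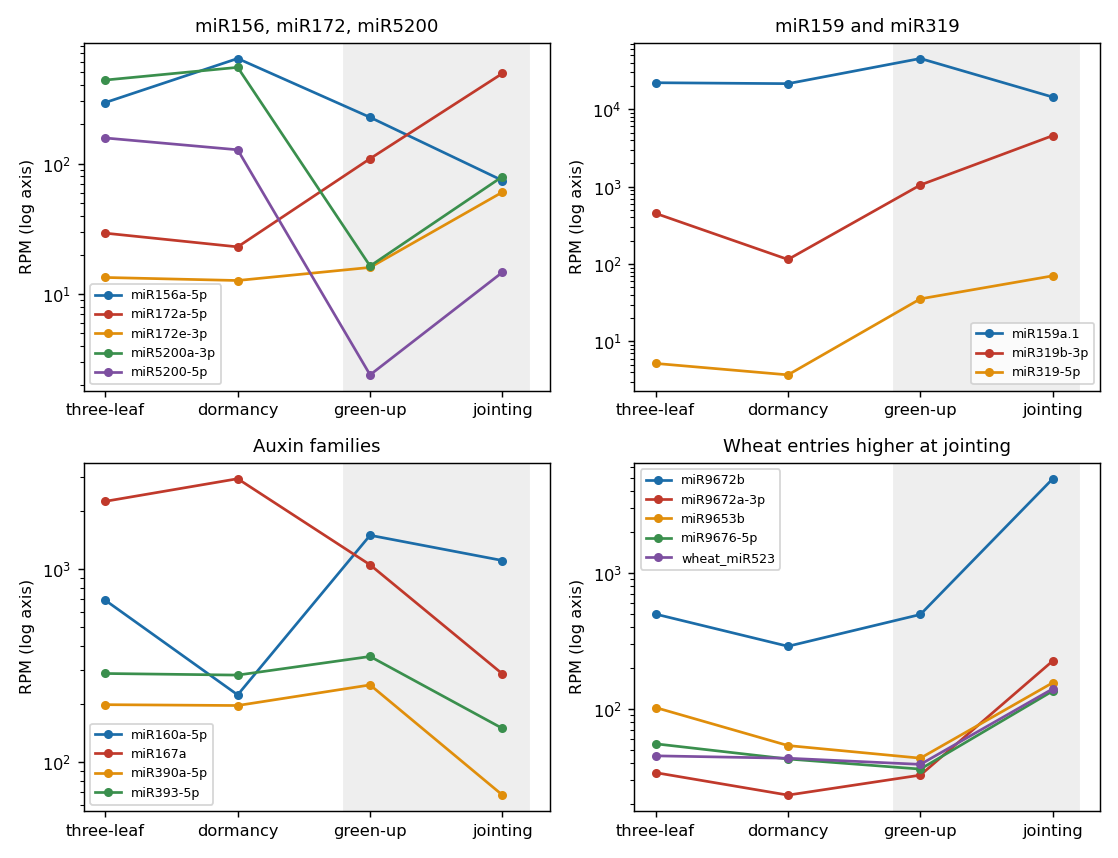
RPM on a log axis at the 4 stages for named miRNAs, 1 pooled library per point, with green-up and jointing shaded. The lines join libraries of 1 miRNA and are not a fit. Between the shaded stages miR156a-5p and miR159a.1 are lower, miR172, miR5200 and miR319b-3p are higher, and miR9672b goes from 493.5 to 4929.0 RPM.

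miR159 and miR319 moved apart. miR159a.1, which acts on GAMYB transcripts, was the most abundant miRNA of the table at green-up and at jointing. Its values were 21980.1, 21378.4, 45173.0 and 14340.2 RPM in the order of the stages. It was highest at green-up and lowest at jointing, with a log2 change between them of -1.66 (-1.66 to -1.65), or -1.05 on the median-ratio scale.

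miR319b-3p, a regulator of TCP transcription factors that control leaf cell division, had 451.4, 114.5, 1049.7 and 4558.3 RPM at the 4 stages in order. It was 4.34-fold higher at jointing than at green-up (log2 2.12, interval 2.10 to 2.14). The opposite arm, miR319-5p, had 35.5 and then 70.4 RPM, and its log2 change of 0.99 fell just short of 2-fold and passed it after median-ratio scaling. Shifted by 1 base, 16 of 20 bases of miR159a.1 match miR319b-3p, so the pair are near relatives in sequence, but their seeds differ and their values went opposite ways. The ratio between them thus narrowed, from 45173.0 against 1049.7 RPM to 14340.2 against 4558.3 RPM.

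Of 8 listed entries of the auxin families 7 were above 5 RPM, 1 higher and 4 lower (57.1%, against 37.8% over all 238), with a median log2 change of -1.24 against -0.70. After median-ratio scaling the median was -0.64 and 2 stayed lower, miR167a and miR390a-5p, a share of 7 entries near the 24.4% of all miRNAs.

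miR167a, which targets the auxin response factors ARF6 and ARF8 in Arabidopsis, had 2248.6, 2945.5, 1053.3 and 286.1 RPM from the three-leaf stage to jointing. It was 3.68-fold lower at jointing than at green-up (log2 -1.88, interval -1.92 to -1.84). miR390a-5p, which starts the production of the small RNAs from TAS3 that act on other ARF genes, had 198.2, 196.2, 250.9 and 67.3 RPM. Its log2 change was -1.90 (-1.98 to -1.81), and its opposite arm miR390-3p went from 30.3 to 11.3 RPM. miR393-5p, which targets the TIR1 and AFB auxin receptors, went from 352.5 to 149.2 RPM (log2 -1.24), and the median-ratio scale left it within 2-fold at -0.64. miR160a-5p, which targets the ARF10 group in Arabidopsis, kept a high level in both crowns. It had 689.9, 222.8, 1499.0 and 1108.9 RPM, and its log2 change of -0.43 turned to 0.17 on the median-ratio scale. Its opposite arm miR160a-3p was listed at 0 until green-up and at 27.1 RPM in jointing crowns.

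Regulators of the meristem and of organ boundaries had 5 entries above 5 RPM. Of these, 1 was higher (20%, against 16.4% of all 238) and 4 were lower (80%, against 37.8%). The 4 include miR165a-3p, which is set aside below, and only 1 of them, miR165a-5p, stayed lower after median-ratio scaling. miR164a, which limits the CUC-type NAC genes that draw organ boundaries, had 2673.4, 2353.8, 1420.9 and 622.7 RPM at the 4 stages in order. Its log2 change from green-up was -1.19 (-1.22 to -1.16), reduced to -0.59 by the median-ratio scale. miR165a-3p, named for the family that acts on HD-ZIP III genes, was listed with 1465.5 and 644.1 RPM, but in each of the 4 libraries its RPM was that of miR164a plus that of miR164b-3p, within 0.1 RPM. Why it did so was not tested, and it is not read here as a separate value. Its listed opposite arm, miR165a-5p, had 102.3, 0, 45.1 and 4.0 RPM at the 4 stages in order, so dormancy was its lowest. From green-up to jointing its log2 change was -3.50 (interval -3.84 to -3.17). miR394a, which acts on an F-box gene and supports stem cell identity in the Arabidopsis shoot, was the only one of the 5 entries above 5 RPM to be higher. It had 43.1, 7.9, 79.5 and 201.0 RPM, and jointing was 2.53-fold above green-up (log2 1.34, interval 1.26 to 1.42).

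The next group is tied to cell proliferation and tillering. Of the 7 entries above 5 RPM in the miR396, miR530, miR171 and miR444 families, none was higher and 1, miR530-3p, was lower, from 17.9 to 7.8 RPM, while 54.2% of all 238 were past 2-fold. The median log2 change of the 7 was -0.23, and 0.37 on the median-ratio scale. miR396b-5p, which restrains GRF growth factors, went from 653.8 to 769.2 RPM, and its opposite arm miR396c-3p had 340.4 and 400.0 RPM. Both arms gave a log2 change of 0.23.

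miR171a-3p and miR171b, which target scarecrow-like GRAS genes, share a seed and differ by C12U, with positions counted from 1 at the 5′ end of miR171a-3p. miR171a-3p had 2000.8 and 1155.6 RPM at green-up and jointing and miR171b had 1721.8 and 1658.6 RPM, so the order of the pair reversed. The log2 changes were -0.79 (-0.81 to -0.77) and -0.05 (-0.08 to -0.03), or -0.19 and 0.55 on the median-ratio scale. Since the authors allowed reads with fewer than 2 mismatches, entries 1 base apart may share reads. miR444b.1, of a monocot family that acts on MADS-box genes linked to tillering and nitrate response in rice, had 492.8 and 407.1 RPM, a log2 change of -0.28 that turned to 0.33 on the median-ratio scale.

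miR168a-5p, which keeps ARGONAUTE1 in check, had 36517.2, 32038.5, 12526.9 and 13669.6 RPM at the 4 stages in order. Its log2 change of 0.13 (0.12 to 0.13) was 0.73 on the median-ratio scale. Its opposite arm miR168-3p had 846.2 and 805.8 RPM, a log2 change of -0.07 that became 0.53. With miR159a.1 lower, the 2 most abundant miRNAs of jointing crowns were nearly level.

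Copper, nutrient and NF-YA families had mostly low levels. Of 4 copper entries above 5 RPM, miR397a, which targets laccases, was higher (7.5 and 15.7 RPM). miR398a-3p, miR398f-5p and miR528-5p stayed within 2-fold at 3.7 to 8.4 RPM in both libraries. On the median-ratio scale miR398a-3p was higher too, with a log2 change of 1.32. At the three-leaf and dormancy stages miR397a had 30.7 and 35.2 RPM and miR398a-3p had 76.3 and 91.7 RPM. miR408d went from a listed 0 to 2.0 RPM, under the level required. Of the nutrient entries, miR827, which targets SPX-domain genes of phosphate handling, went from 40.5 to 12.5 RPM (log2 -1.70), and miR395b, which acts on sulfate assimilation, from 9.7 to 2.6 RPM (log2 -1.90). miR399b, which acts on the phosphate regulator PHO2, had 33.7 and 40.0 RPM, within 2-fold.

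miR2111a-3p, the opposite arm of a family that answers to phosphate and nitrogen supply, was listed at 0 in each library up to green-up and reached 568.5 RPM in jointing crowns. It was the largest value of the miRNAs listed at 0 at green-up. It was at least 4148-fold higher at jointing if that 0 stands for no more than 3 reads, which was not tested. In the miR169 family, which targets NF-YA transcription factors, miR169g had 229.1, 295.9, 41.2 and 90.1 RPM, so jointing was 2.19-fold above green-up and below both earlier stages. miR169b-3p, at 0 in the earlier libraries, had 32.6 RPM in jointing crowns, and miR169a-5p, which shares the seed of miR169g, had 5.3 and 4.3 RPM.

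Among the triggers of phased small RNAs and regulators of NLR resistance genes, miR2118c went from a listed 0 to 69.5 RPM, above its 11.9 and 13.9 RPM at the three-leaf and dormancy stages. In grasses miR2118 and miR2275 start the phased small RNAs of developing anthers. The other miR2118 entries and both miR2275 entries stayed under 5 RPM in both libraries, with miR2275b-3p at 0 and 1.7 RPM and miR2275b-5p at 0 and 0.7 RPM. miR9863a-3p, which acts on Mla-type resistance genes of barley and wheat, had 518.0 and 290.6 RPM (log2 -0.83), and miR9863a-5p had 53.6 and 48.9 RPM.

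**Figure D3:**
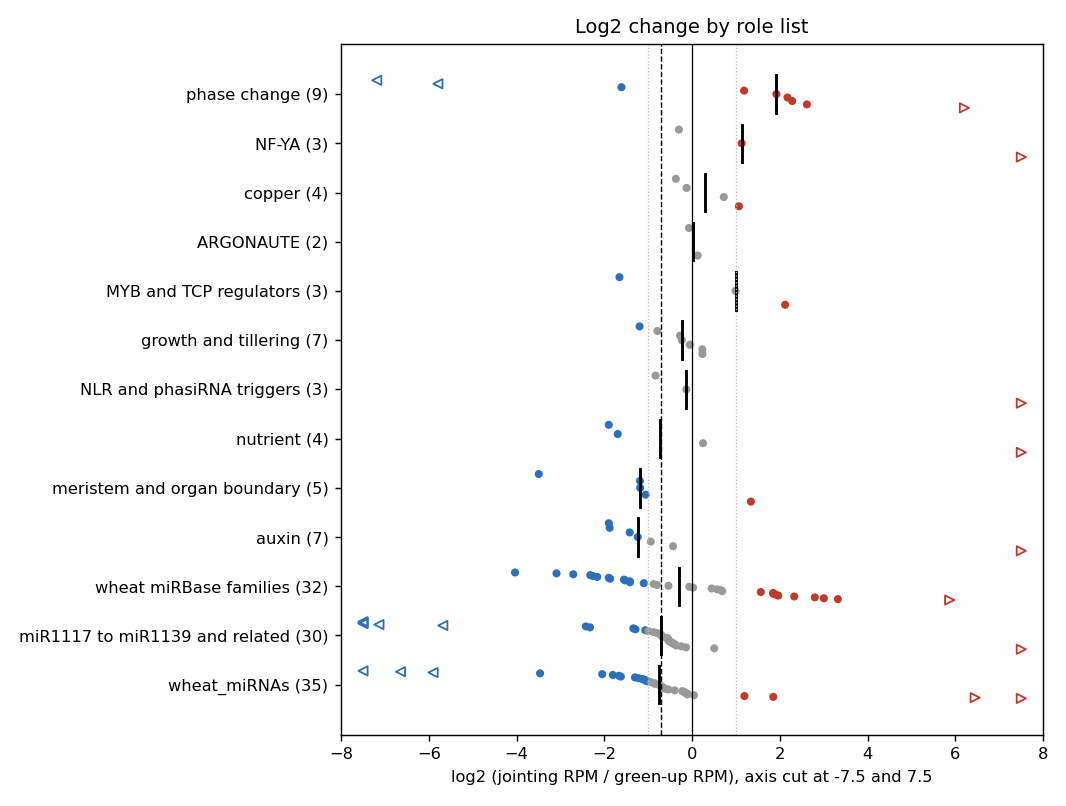
Log2 change from green-up to jointing of each miRNA above 5 RPM, by role list, with the number of such miRNAs in brackets. Filled points are miRNAs above 0 in both libraries, triangles are those listed at 0 in 1 library and are drawn at their bound or at the edge of the axis, bars are list medians, and the dashed line is the median of all 238, -0.70. The phase change list has the highest median, 1.92, and the auxin list the lowest, -1.24. Lists were chosen with earlier results of these data known, and both arms of a duplex are drawn as separate entries.

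The families first named in wheat, miR9652 to miR9679 and miR9772 to miR9783, spread widely. Of 41 listed entries 32 were above 5 RPM, 10 higher (31.3%, against 16.4% of all 238) and 13 lower (40.6%, close to the 37.8% of all), with a median log2 change of -0.30, or 0.30 on the median-ratio scale. miR9672b had the largest gain in RPM of the whole table. It had 496.7, 287.9, 493.5 and 4929.0 RPM from the three-leaf stage to jointing, so 3 libraries lay close together and jointing was 9.99-fold above green-up (log2 3.32, interval 3.29 to 3.35). miR9672a-3p shares a stretch of 19 bases with it and had 33.8, 23.1, 32.4 and 224.8 RPM. Their sum gave a log2 change of 3.29.

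miR9652-5p went the other way, with 2263.7, 2688.1, 1419.7 and 166.6 RPM. It was 8.52-fold lower at jointing than at green-up (log2 -3.09, interval -3.14 to -3.04), and its opposite arm miR9652-3p went from 118.0 to 40.9 RPM (log2 -1.53, within 2-fold after median-ratio scaling). miR9653b and miR9653a-3p, the arms of another wheat family, went from 43.2 to 155.3 RPM and from 27.3 to 98.3 RPM, each a log2 change of 1.85. miR9666c-5p went from 7.6 to 38.1 RPM (log2 2.33) and miR9656-3p from 0.8 to 6.4 RPM (log2 3.0, interval 2.24 to 3.76). miR9655-3p went from 8.2 to 0.5 RPM (log2 -4.04, interval -5.17 to -3.18).

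Of 9 miRNAs whose cleavage sites the study mapped by RACE in wheat transcripts, 7 were above 5 RPM. They had been picked among miRNAs that differed between these same libraries, so their counts are no independent evidence of a direction. Here 1 was higher (14.3%) and 3 were lower (42.9%), near the 16.4% and 37.8% of all 238. The median log2 change was -0.80, and only miR9674b-5p stayed lower after median-ratio scaling. miR9674b-5p, directed at a gene of the Rf1 type of pentatricopeptide repeat protein, had 5522.4, 4811.3, 2997.5 and 820.7 RPM (log2 -1.87 from green-up, interval -1.89 to -1.84). miR9676-5p, directed at a gene annotated for biotic stress resistance, had 55.1, 42.6, 35.9 and 134.9 RPM and was 3.76-fold higher at jointing (log2 1.91, interval 1.79 to 2.03). miR5048-5p, directed at a terpene synthase, went from 3809.0 to 1873.7 RPM, and miR9772, directed at an F-box gene, from 720.0 to 335.4 RPM. Both of these came within 2-fold on the median-ratio scale. miR7757-5p, directed at a gene like the resistance gene RGA5, had 2804.9 and 3139.8 RPM. miR9662a-3p and wheat_miR1356, both directed at mTERF genes, had log2 changes of -0.80 and -0.66, and wheat_miR259 and wheat_miR652 stayed under 5 RPM.

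The group miR1117 to miR1139 and its relatives had the median of all miRNAs but few higher entries. Of 30 entries 1 was higher (3.33%, against 16.4% of all 238) and 10 were lower (33.3%, against 37.8%), 5 of them listed at 0 at jointing. On the median-ratio scale 2 were higher and 7 lower, where all 238 had 21% and 24.4%. The median log2 change of -0.70 was the same as over all 238, and -0.10 on the median-ratio scale. Within the group, miR1117 and miR1131 share a seed and began close together, yet miR1117 went from 351.9 to 319.4 RPM and miR1131 from 361.3 to 142.6 RPM. wheat_miRNAs are entries without a miRBase name. Of the 35 above 5 RPM, 4 were higher (11.4%) and 14 were lower (40%), and 8 of the 14 stayed lower on the median-ratio scale, shares close to those of all 238. wheat_miR1560 was the most abundant of these 4, at 0, 1516.89, 0 and 277.01 RPM over the season.

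Large changes also occurred in entries known from other plants. miR6249a, at a listed 0 in both libraries before spring, went from 111.8 to 1303.0 RPM, 11.7-fold higher (log2 3.54, interval 3.48 to 3.60). miR1163.2, miR893 and miR9569-5p were listed at 0 up to green-up and then at 47.7, 73.3 and 45.3 RPM. In the opposite direction, miR1023a-3p had 169.4, 506.2 and 576.7 RPM before jointing and a listed 0 there, and miR9493 had 172.7, 206.6 and 269.7 RPM before a listed 0. miR9493 shares 16 bases with miR5205a, and the sum of the pair gave a log2 change of -3.14. miR5067 went from 31.7 to 1.4 RPM (log2 -4.50), miR5291a from 33.6 to 0.5 RPM (log2 -6.07) and miR5073 from 18.3 to 1.6 RPM (log2 -3.52).

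By length, the 62 entries of 23 to 24 nt above 5 RPM had 6 higher (9.68%) and 29 lower (46.8%), with a median log2 change of -0.90. The 176 entries of 20 to 22 nt had 33 higher (18.8%) and 61 lower (34.7%), with a median of -0.64, where all 238 had 16.4% and 37.8%. The longer entries were 26.1% of the 238 and made up 15 of the 30 that were lower and listed at 0 at jointing. The difference between the length classes was not tested.

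Arms of 1 family were paired when 1 was named 3p and the 2 were complementary over at least 6 bases, which gave 39 pairs. The miR319 entries (log2 2.12 and 0.99) and the miR165a entries (-1.19 and -3.50) did not meet this and are not counted. In 26 of the 39 pairs both arms were above 5 RPM in either library, and 20 of these had both arms above 0 in both libraries. Of the 20, 18 had the same sign in both arms, 13 differed by less than 0.5 on the log2 scale and 16 fell in the same class. Their median difference was 0.31. Most changes were negative, so unrelated entries would often share a sign too, and no rate was computed for them. Among pairs left out for a listed 0, signs were opposite in miR156a-5p with miR156d-3p, miR160a-5p with miR160a-3p, and miR169a-5p with miR169b-3p. The other pairs left out had the same sign in both arms. miR172, miR5200 and miR9653 were higher in both arms, and miR390, miR9652 and miR164 lower in both. On the median-ratio scale miR390-3p (-0.82) and both miR164 arms (-0.59 and -0.46) came within 2-fold, as did miR9652-3p. miR168 and miR398 changed sign between arms with log2 changes between -0.13 and 0.72. On the median-ratio scale their arms agreed in sign, while the arms of miR1127, miR5181, miR530 and miR9863 split. The widest pair was miR6224a-5p and miR6224a-3p, -6.13 against -0.95.

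**Figure D4:**
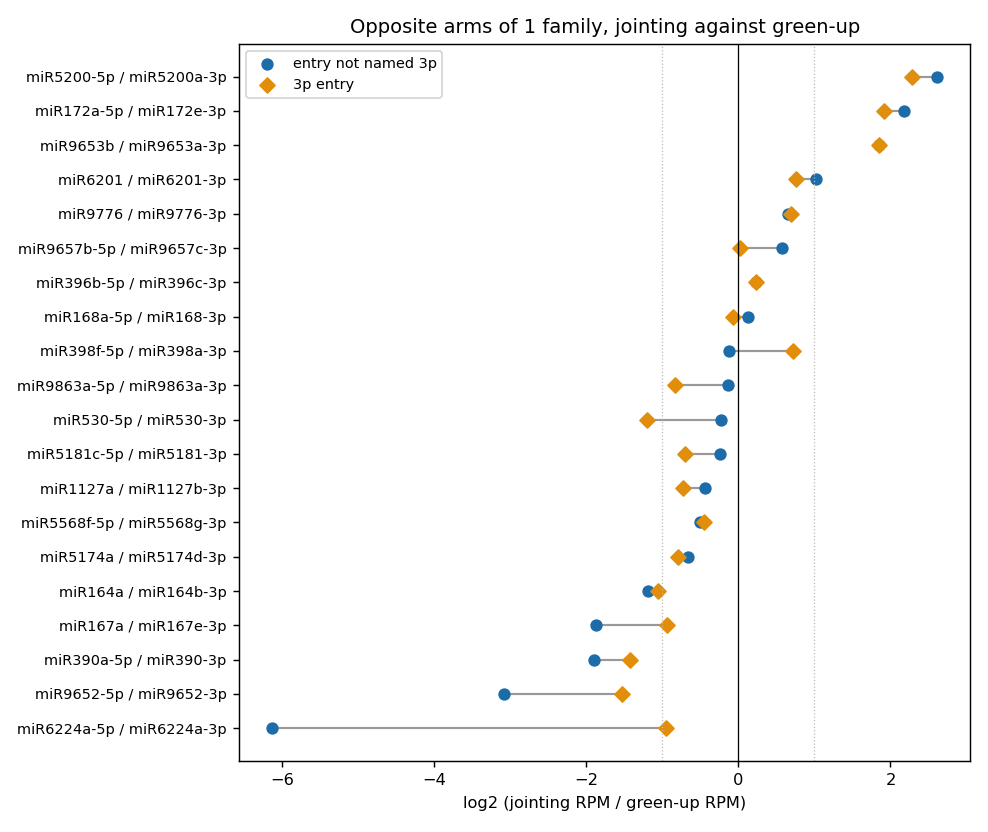
Log2 change from green-up to jointing in both arms of 20 families, circles for the entry not named 3p and diamonds for the 3p entry, joined by a line. Dotted lines mark 2-fold. In most pairs the arms lie close together, and the miR6224a pair is the widest, at -6.13 and -0.95.

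The 21 bases of miR6224a-5p are identical to those of miR6220-5p, printed above, yet miR6224a-5p was listed with 196.4 and 2.8 RPM and miR6220-5p with 47.9 and 108.2 RPM. Summed they had 244.3 and 111.0 RPM, which gives a log2 change of -1.14 in place of -6.13 and 1.18. How reads were divided between identical entries was not tested. The same held for miR1877 and miR5050, which are identical and had 19.8 and 9.4 RPM against 1.7 and 5.8 RPM, a log2 change of -0.50 for the sum. When entries that share a stretch of at least 16 bases were summed, 36 were higher and 83 lower.

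wheat_miR523, chosen after its values were seen, resembled miR9676-5p, to which it is complementary over a stretch of 11 bases. It had 44.94, 43.15, 38.88 and 139.99 RPM, and its log2 change of 1.85 lay within the counting interval of miR9676-5p. Among other entries 1 or 2 bases apart, wheat_miR127 and wheat_miR128 differ by U2C, counted from the 5′ end of the first. wheat_miR127 was listed at 0 before green-up and had 47.56 and 22.55 RPM, while wheat_miR128 had 69.4 and 61.39 RPM. miR172e-3p and wheat_miR1617 share a seed but not a course, the latter going from 8.41 to 7.21 RPM.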

How the data were processed

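The authors pooled total RNA of 3 biological replicates for each stage, sequenced small RNAs of 18 to 30 nt on a BGISEQ-500 instrument, removed other RNA classes with SOAP and assigned known miRNAs by BLASTN against miRBase with fewer than 2 mismatches. The deposited RPM values, headed TPM, are reads per 1000000 mapped reads, with 1 decimal for miRBase entries and 2 decimals for the wheat_miRNAs.

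Here the depth of each library was estimated from the step between wheat_miRNA values under 20 RPM, all of which came out as whole reads (100%). Log2 ratios, exact binomial intervals and a median-ratio scaling were computed with Python 3.11.15, numpy 2.4.6, pandas 2.3.3 and scipy 1.17.1, and tested on simulated data. Figures used matplotlib 3.10.9. The 2-fold and 5 RPM limits follow the study, but its DEGseq p was not used, since it compares reads of single libraries. The sequences are those of the deposited table, and the positions of these miRNAs in the genome, the qRT-PCR and the RACE data were not analysed here. Entries were named when they belonged to a role list, had a mapped target, ranked among the 8 largest gains or losses or the 6 largest folds, were at 0 in 1 library and above 20 RPM in the other, or had a partner arm or shared seed. Entries and lists were chosen with earlier results of these data known. The alternatives covered scaling, the value of a 0, a pseudocount of 1 RPM, the level and fold limits and shared sequences.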

Additional observations from a re-analysis of the deposited data

How the results depend on the processing

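The counts depended on scaling and on the limits. The 90 lower miRNAs became 58 with the median ratio and 56 when scaled to the listed miRNAs, and the median log2 change of -0.70 became -0.10 and -0.062, or -0.42 when miR159a.1 and miR168a-5p were left out of the scaling sum. At 4-fold, 24 were higher and 47 lower. With no level filter 60 were higher and 117 lower and the median was -0.47, and without miRNAs listed at 0, 24 were higher and 60 lower. The ratio of summed RPM of 0.643 became 0.826 without miR159a.1 and miR168a-5p, 0.646 without miR165a-3p, 0.639 for known miRNAs and 0.645 for entries of 20 to 22 nt. In the other 32 values the counts stayed within 1.5 times, from 60 to 128 lower and from 27 to 53 higher. The scalings moved log2 changes by at most 0.64, so no change past 2-fold could turn its sign under them. Nor could it under a pseudocount or the other values of a 0. That the named changes kept their sign there is therefore no check on them. Summing identical entries turned miR6220-5p from 1.18 to -1.14 and miR5050 from 1.77 to -0.50. Summing linked entries, and leaving out entries of alternating detection, were chosen after seeing the data. The pooling leaves 1 library a stage, so no replicate could be left out. No paired analysis was possible because each stage has a single library. Precision is limited by counting only for low values, since among miRNAs with over 100 reads in both libraries the widest interval spanned 0.75 on the log2 scale.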

Other observations

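Some entries were listed above 0 in alternate libraries only. At the three-leaf and green-up stages but not at dormancy or jointing, 11 miRNAs had values, 8 of them above 5 RPM at green-up. The highest was miR5240, with 865.3 and 1249 RPM, and miR5175a had 126.5 and 199.9 RPM. The reverse, values at dormancy and jointing only, held for 6 miRNAs, 3 of them above 5 RPM at jointing. Among these, wheat_miR1560 had 1516.89 and 277.01 RPM and miR5175-5p, named for the opposite arm of miR5175a, had 36.5 and 28.6 RPM. Without these 17 miRNAs, 36 were higher at jointing and 82 were lower.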
